A study of Mus musculus with 59 samples.

Results

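H3K4me3 and H3K27ac were compared between uteri of mice aged 42 or 48 weeks (aged group 2) and uteri of mice aged 28 or 36 weeks (aged group 1). The libraries were chosen by the age in their names, and made up 20 of the 59 samples of the series. Aged group 2 held 6 libraries of each mark, 3 from mice of 42 weeks and 3 from mice of 48 weeks. Aged group 1 held 4 libraries of each mark, 2 from mice of 28 weeks and 2 from mice of 36 weeks. All samples carried the strain label C57/B6, with no treatment or genotype given, and the chromatin came from snap frozen pieces of endometrium. A code in each library name, taken to stand for the animal, occurred in a single library per mark and was shared between the marks. The remaining samples were 14 libraries of young mice (9 to 11 weeks), 20 libraries of aged group 3 (54 to 65 weeks) and 5 inputs. The question was whether the middle stage of reproductive ageing differs from the stage before it.

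H3K4me3 is a histone mark laid down at promoters with an open start site, and H3K27ac marks active promoters and enhancers, where it turns over as regulatory input changes. The uterus is a layered organ in which epithelium, its underlying stroma, a muscle coat, vessels and resident immune cells lie side by side, and oestrogen and progesterone reshape it in every oestrous cycle. Mice lose regular cycles in midlife, at an age that differs between animals. In whole tissue, fewer cells of a type and less mark per cell cannot be told apart.

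No peak of either mark differed between aged group 2 and aged group 1 at a limma adjusted p at or under 0.05. Of 25827 H3K4me3 peaks, 0 were called (0%), and the smallest adjusted p was 0.858. Of 54354 H3K27ac peaks, 0 were called (0%), and the smallest adjusted p was 1. At an unadjusted p under 0.05, limma gave 659 H3K4me3 peaks (2.55%), 370 higher (1.43%) and 289 lower (1.12%) in aged group 2. For H3K27ac it gave 1511 (2.78%), 858 higher (1.58%) and 653 lower (1.2%). In 169 H3K4me3 peaks (0.654%) and 341 H3K27ac peaks (0.627%) the libraries of the 2 groups did not overlap.

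The promoters nearest to a difference belonged to Cir1, a corepressor of the Notch transcription factor RBPJ, Parp6, an enzyme that attaches single ADP-ribose units, Exoc4, a subunit of the exocyst that tethers secretory vesicles, and Nampt, the rate-limiting enzyme of NAD salvage. Their sequences are shown because the peaks named for them lie on the start site and had the smallest p among named promoters. Each window runs from 250 bases before to 50 bases after the RefSeq start in GRCm38.p6, on the gene's own strand. The windows are chr2:73312543-73312842 (minus strand) for Cir1, chr9:59617034-59617333 (plus) for Parp6, chr6:33248878-33249177 (plus) for Exoc4 and chr12:32820085-32820384 (plus) for Nampt. Capitals mark matches to the motifs searched.
Cir1: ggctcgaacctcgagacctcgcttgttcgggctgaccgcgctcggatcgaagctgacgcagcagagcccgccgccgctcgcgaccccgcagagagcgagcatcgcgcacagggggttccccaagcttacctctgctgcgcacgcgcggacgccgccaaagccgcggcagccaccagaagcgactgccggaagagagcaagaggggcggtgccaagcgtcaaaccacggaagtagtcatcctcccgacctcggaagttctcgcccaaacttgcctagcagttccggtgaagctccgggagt
Parp6: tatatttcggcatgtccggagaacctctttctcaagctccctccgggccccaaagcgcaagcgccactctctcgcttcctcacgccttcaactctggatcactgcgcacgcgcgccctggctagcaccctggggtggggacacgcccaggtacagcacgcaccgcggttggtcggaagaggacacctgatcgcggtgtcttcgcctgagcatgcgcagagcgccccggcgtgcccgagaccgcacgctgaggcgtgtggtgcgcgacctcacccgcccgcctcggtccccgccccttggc
Exoc4: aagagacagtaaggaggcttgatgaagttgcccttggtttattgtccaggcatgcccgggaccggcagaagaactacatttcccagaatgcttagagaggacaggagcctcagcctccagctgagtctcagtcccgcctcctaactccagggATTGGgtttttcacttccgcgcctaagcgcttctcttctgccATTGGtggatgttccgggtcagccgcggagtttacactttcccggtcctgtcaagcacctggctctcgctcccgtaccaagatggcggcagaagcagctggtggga
Nampt: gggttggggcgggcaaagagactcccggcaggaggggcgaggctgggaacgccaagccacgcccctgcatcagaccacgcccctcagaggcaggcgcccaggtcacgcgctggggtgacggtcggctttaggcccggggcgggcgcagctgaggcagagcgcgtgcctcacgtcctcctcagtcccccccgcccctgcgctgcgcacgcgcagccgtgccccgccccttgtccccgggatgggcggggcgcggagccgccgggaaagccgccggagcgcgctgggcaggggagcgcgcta

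The motifs searched on both strands were the palindromic oestrogen response element, the palindromic element of the progesterone and glucocorticoid receptors, TGANTCA of AP-1, and CCAAT. Across all 32851 RefSeq windows they were found in 0.07%, 0.475%, 7.81% and 37.4%. The Exoc4 window held 2 matches to CCAAT, both read on the other strand as ATTGG, and the windows of Cir1, Parp6 and Nampt held none of the 4 motifs. A match here describes letters in the window and no binding. The GC content was 66.3% for Cir1, 67.7% for Parp6, 56.3% for Exoc4 and 76.3% for Nampt, against a median of 52.7% over all windows. The same windows held 36, 33, 13 and 36 CpG dinucleotides, against a median of 7.

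H3K4me3 at the Cir1 promoter (chr2:73311517-73313812) was 4.26, 4.45 and 4.53 log2 RPKM as the lowest, median and highest library of aged group 2, against 4.61, 4.67, 4.65 and 4.60 in aged group 1. RPKM is reads per kilobase of peak, scaled to the depth of the library, here after quantile normalization. All 6 libraries of aged group 2 lay under all 4 of aged group 1. The difference was -0.20 ± 0.049 on the log2 scale (limma SE, n = 6 and 4), with a limma adjusted p of 1. In values without quantile normalization it was -0.01, where the median over all genes moved to 0.18. Here and below, SEs, intervals and p-values rest on the spread within groups over all 27 libraries of the mark, moderated across peaks. They are not those of these 10 libraries alone. In order of age, the group means were 4.66 in young, 4.63 in aged group 1, 4.43 in aged group 2 and 4.62 in aged group 3. The peak was chosen on aged group 2 minus aged group 1, so the dip is a description. H3K27ac at the same promoter differed by -0.24 ± 0.16.

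Parp6 (chr9:59616229-59618487) had 3.99, 4.08 and 4.2 log2 RPKM of H3K4me3 in aged group 2, as lowest, median and highest, against 4.33, 4.31, 4.2 and 4.41 in aged group 1. The groups met at 4.2 after rounding and only just failed to overlap, and the difference was -0.22 ± 0.06. H3K27ac at Parp6 differed by -0.05 ± 0.18. Nampt (chr12:32819268-32822388) had 3.52, 3.60 and 3.74 log2 RPKM of H3K4me3 in aged group 2 and 4.04, 3.76, 3.82 and 3.97 in aged group 1. Every library of aged group 2 was lower, with a difference of -0.27 ± 0.083, while H3K27ac at Nampt differed by 0.02 ± 0.14. Ambra1, a regulator of autophagy, and Chic2 also had lower H3K4me3 means at the promoter in aged group 2, with differences of -0.18 ± 0.057 and -0.25 ± 0.086 and with groups that overlapped. In values without quantile normalization, where the median over all genes was 0.18, these differences were closer to 0, with -0.03 for Parp6, -0.08 for Nampt, -0.06 for Chic2 and 0.01 for Ambra1, which changed sign.

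Promoter peaks with a higher H3K4me3 mean in aged group 2 were those of Ggcx, Zfp772 and Lrriq1. Ggcx is the vitamin K-dependent carboxylase of clotting factors and matrix Gla protein. Its peak (chr6:72413565-72415498) had 4.45, 4.50 and 4.57 log2 RPKM in aged group 2, against 4.31, 4.35, 4.27 and 4.18 in aged group 1, a difference of 0.22 ± 0.07 with no overlap. Lrriq1 (chr10:103235621-103236579) had 4.23, 4.35 and 4.60 in aged group 2, against 4.09, 4.15, 4.11 and 3.66 in aged group 1, again with no overlap and with a difference of 0.35 ± 0.11. Replicate 4 of aged group 1 stood well under the other Lrriq1 values. Zfp772, a zinc finger protein gene, differed by 0.28 ± 0.09, with groups that overlapped. In values without quantile normalization the differences were 0.41 for Ggcx, 0.48 for Zfp772 and 0.55 for Lrriq1, on a scale where the median over all genes was 0.18. H3K27ac at these promoters differed by 0.14 ± 0.12 for Ggcx, 0.02 ± 0.23 for Zfp772 and 0.49 ± 0.43 for Lrriq1.

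The single promoter among the named H3K27ac peaks was that of Exoc4 (chr6:33248440-33249800). It had 2.17, 2.46 and 2.67 log2 RPKM in aged group 2, against 1.75, 1.62, 2.16 and 2.06 in aged group 1. The lowest library of aged group 2 stood just above the highest of aged group 1, and the difference was 0.53 ± 0.15. H3K4me3 at Exoc4 differed by -0.06 ± 0.096. The mean H3K27ac by age was 2.04 in young, 1.90 in aged group 1, 2.43 in aged group 2 and 2.09 in aged group 3. As the peak was chosen on aged group 2 minus aged group 1, the high mean in aged group 2 is a description.

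**Figure D1:**
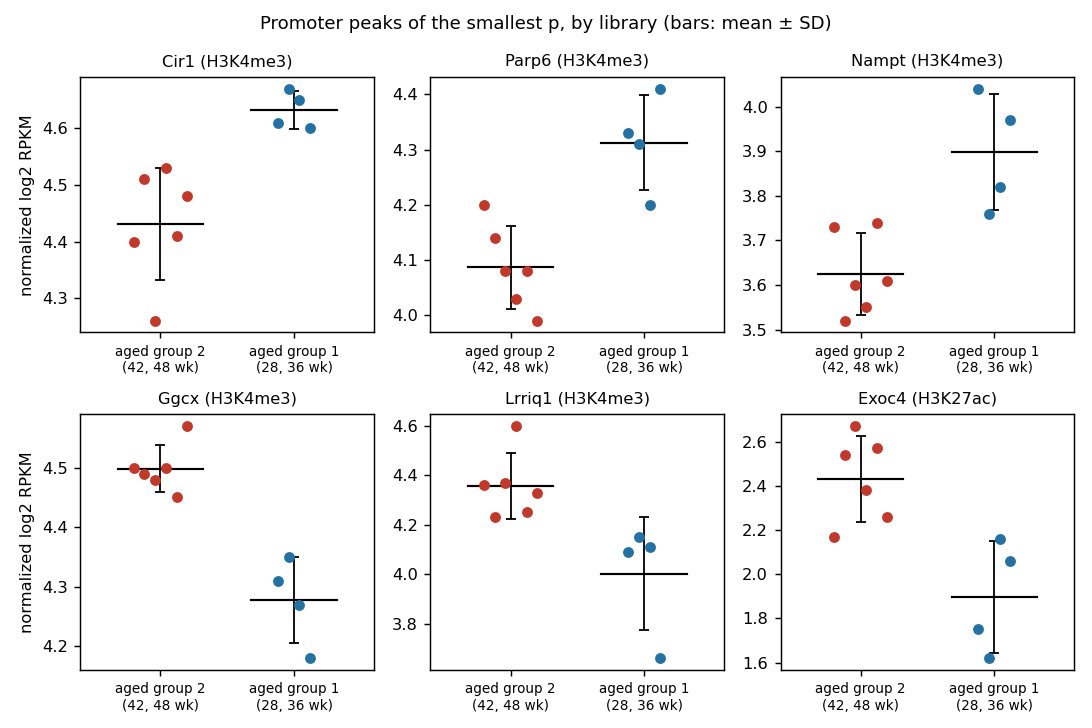
Normalized log2 RPKM of each library at 6 promoter peaks of small p, with aged group 2 (n = 6) left of aged group 1 (n = 4) and bars for mean ± SD. At Cir1, Parp6 and Nampt the H3K4me3 values of aged group 2 lie lower, at Ggcx and Lrriq1 higher, and at Exoc4 the H3K27ac values lie higher, by 0.20 to 0.53 log2 units in size.

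Away from promoters, the named H3K4me3 peaks had larger differences and fewer reads. Esrrg encodes an orphan nuclear receptor related to the oestrogen receptors, and a peak in its gene body (chr1:188055765-188056378) had 2.74, 3.01 and 3.33 log2 RPKM in aged group 2, against 1.76, 2.64, 2.44 and 2.50 in aged group 1. The groups did not overlap, and the difference was 0.69 ± 0.21. By age, the Esrrg means were 2.24 in young, 2.33 in aged group 1, 3.03 in aged group 2 and 2.83 in aged group 3. This peak was chosen on aged group 2 minus aged group 1 as well, so the order of its means is a description. A gene-body peak of Lmod1, the smooth muscle actin nucleator, differed by 1.14 ± 0.32. One of Slc7a1, a carrier of cationic amino acids, differed by 1.55 ± 0.42, and one of Dcps, an enzyme that breaks down mRNA caps, by 1.06 ± 0.32. One of Hmgb1, a chromatin protein that acts as an alarm signal outside cells, differed by 1.23 ± 0.38. Peaks flanking Snorc, a cartilage proteoglycan, and Fam3c, a secreted factor, differed by 1.19 ± 0.31 and 1.61 ± 0.51. All these groups except those of Esrrg overlapped. With array weights the Fam3c difference was 0.88.

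Lower H3K4me3 means in aged group 2 were found in the bodies of Cilp2, an extracellular matrix gene (-2 ± 0.58), Ptprs, a receptor phosphatase (-1.36 ± 0.46), Sh2b2, an adaptor of insulin signalling (-0.80 ± 0.27), and Srrm1, a splicing coactivator (-1.51 ± 0.52). The peak given to Lat, the T cell adaptor, as a flank, though 10048 bases from its RefSeq start, differed by -2.01 ± 0.68. These peaks were shallow. Cilp2 rested on 3 to 16 reads per library in aged group 2 and 17 to 74 in aged group 1, and Lat on 1 to 6 reads in aged group 2 and 8 to 47 in aged group 1. These reads are not scaled to depth, and replicate 3 of aged group 1 held 48.29 M (mega) reads, against 6.8351 to 12.168 M in aged group 2. The libraries of both groups overlapped at all 5. The Ptprs difference was -0.89 without replicate 1 of aged group 2, and that of Sh2b2 was -0.53 in values without quantile normalization.

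Named H3K27ac peaks other than that of Exoc4 lay in gene bodies or flanks. Npas2, the partner of BMAL1 that can stand in for CLOCK, had a peak in each direction. At the first (chr1:39251794-39252315), H3K27ac was 0.72, 1.58 and 1.95 log2 RPKM in aged group 2, as lowest, median and highest, against -1.34, 1.26, 0.51 and 0.15 in aged group 1, a difference of 1.33 ± 0.33. At the second (chr1:39313374-39314502), it was -0.22, 0.11 and 1.07 in aged group 2, against 1.43, 1.72, 0.89 and 1.92 in aged group 1, a difference of -1.20 ± 0.32. The groups overlapped at both Npas2 peaks, which lie 58092 and 119672 bases from the gene start. Without replicate 1 of aged group 1 the first difference was 0.85.

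Groups at the H3K27ac peaks with higher means in aged group 2 of Mrrf, a mitochondrial ribosome recycling factor (1.04 ± 0.28), Aplp2, a relative of the amyloid precursor (1.41 ± 0.38), and Tpst1, a tyrosine sulfotransferase (1.26 ± 0.34), did not overlap. Those of Ablim1, an actin-binding protein (0.93 ± 0.22), Pank2, an enzyme of coenzyme A synthesis (1.25 ± 0.30), Kctd1 (1.05 ± 0.27) and Morn1 (1.42 ± 0.38) did. The Ablim1 difference was 0.62 in values without quantile normalization, and that of Kctd1 was 0.69 among replicates 1 to 4 of each group. Each of these 7 peaks held between 4 and 57 reads per library.

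Of the H3K27ac peaks lower in aged group 2, those of Dpp8, a cytosolic dipeptidyl peptidase (-1.73 ± 0.47), Abtb2 (-1.15 ± 0.32), Tmed10, a cargo receptor of the early secretory pathway (-0.96 ± 0.27), Ccdc6 (-0.88 ± 0.25) and Sdk1, an adhesion protein (-1.11 ± 0.33), had groups without overlap. Prune2 (-0.85 ± 0.22), Ptpn1, the phosphatase that dampens insulin and leptin signalling (-1.22 ± 0.34), Actr3, a subunit of the actin-branching ARP2/3 complex (-1.01 ± 0.30), and Fdps, an enzyme of the mevalonate pathway (-1.12 ± 0.33), overlapped between groups. The Ccdc6 peak is deposited as a flank but lies 98261 bases from the RefSeq start of the gene. The Dpp8 difference was -1.1 with a pseudocount of 0.5 RPKM, and that of Sdk1 was -0.60 among replicates 1 to 4 of each group. Every peak named so far had a limma adjusted p of 1.

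The smallest p of all belonged to an H3K4me3 peak with no gene within 5 kb (chr11:112480205-112480598), with an adjusted p of 0.858 in limma. It averaged 2.53 ± 0.51 log2 RPKM in aged group 2 and 1.00 ± 0.75 in aged group 1 (SD, n = 6 and 4). The difference was 1.53 ± 0.31 (limma SE over all 27 libraries). Its libraries spanned 1.85 to 3.32 in aged group 2, against 1.48, 0.37, 1.80 and 0.34 in aged group 1, so the groups lay just apart.

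Both marks were then set side by side at the same promoters. A promoter peak in each mark was found for 9885 genes, of which 153 had an unadjusted limma p under 0.05 for H3K4me3 and 197 for H3K27ac. The 2 sets shared 6 genes, or 6 of 153 and 6 of 197, all in the same direction in both marks. They were named after their values were seen, and none passed adjustment. The size of the overlap was not tested. The code taken to stand for the animal is shared between the marks, so a shared direction is not agreement of 2 independent measurements. H60c, a ligand of the NK cell receptor NKG2D, differed by 1.46 ± 0.50 for H3K4me3 and 1.27 ± 0.44 for H3K27ac. Its H3K4me3 was 1.67, 1.18, 1.81, 1.40, 1.52 and 2.16 log2 RPKM in aged group 2, against -0.69, 0.90, 0.66 and -0.22 in aged group 1, with no overlap. Its H3K27ac was 0.10, 0.37, 0.41, 0.70, 0.96 and 0.83 in aged group 2, against -1.63, 0.28, -0.23 and -1.25 in aged group 1, where replicate 2 overlapped.

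Barx2, a homeobox gene, had a higher mean in aged group 2, by 0.57 ± 0.24 for H3K4me3 and 0.69 ± 0.32 for H3K27ac. Smarcad1, a chromatin remodeller, had higher means by 0.13 ± 0.065 and 0.26 ± 0.10, and the predicted gene Gm13240 by 1.37 ± 0.49 and 1.31 ± 0.50 at near-empty levels. Simc1 differed by -0.24 ± 0.11 for H3K4me3 and -0.51 ± 0.22 for H3K27ac. Snrk, an AMPK-related kinase, differed by -0.19 ± 0.078 and -0.32 ± 0.15. At Snrk, H3K27ac was 1.83, 1.52, 1.57, 1.55, 1.64 and 1.24 log2 RPKM in aged group 2, against 1.93, 1.92, 1.86 and 1.81 in aged group 1, so only replicate 1 of aged group 2 reached into the range of aged group 1.

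How large a difference the data still allowed depended on where a peak lay. At promoters, the 95% interval of the difference lay inside a 2-fold change in either direction for 91.1% of 11762 H3K4me3 peaks and 90.7% of 10919 H3K27ac peaks. In gene bodies the share was 68.2% of 9537 H3K4me3 peaks and 70.3% of 29762 H3K27ac peaks. Where no gene lay within 5 kb it was 63.2% of 3174 and 59.7% of 9795 peaks. Inside a 4-fold change lay 98.8% of all H3K4me3 and 99.3% of all H3K27ac peaks. Group means differed by more than 2-fold in 167 H3K4me3 peaks (0.647%) and 235 H3K27ac peaks (0.432%). At the unadjusted p under 0.05, promoters gave 93 higher and 108 lower H3K4me3 peaks (1.71%) and 63 higher and 154 lower H3K27ac peaks (1.99%), while H3K27ac in gene bodies gave 574 higher and 359 lower (3.13%).

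**Figure D2:**
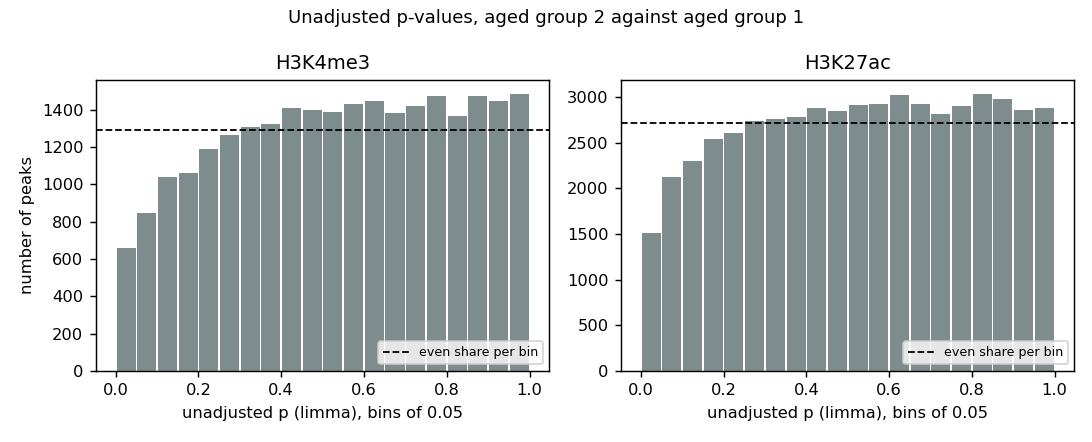
Unadjusted limma p-values of aged group 2 against aged group 1, counted in bins of 0.05 for the peaks of each mark, with a dashed line at the number each bin would hold if spread evenly. The lowest bin holds 659 H3K4me3 and 1511 H3K27ac peaks, the fewest of any bin in both marks.

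Ages inside a group were compared in the same way. Between 48 and 42 weeks, 0 peaks of either mark passed in limma, with 1089 H3K4me3 (4.22%) and 2208 H3K27ac peaks (4.06%) at an unadjusted p under 0.05. Between 36 and 28 weeks 0 passed as well, with 803 (3.11%) and 1394 (2.56%). For scale, aged group 3 against young gave 7921 H3K4me3 (30.7%) and 15904 H3K27ac peaks (29.3%) in the same model. That comparison had 10 and 7 libraries, and its counts were not tested against those of aged group 2 against aged group 1.

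Libraries of a group correlated no more closely with each other than with those of the other group. The median correlation between libraries, across H3K4me3 peaks, was 0.911 over 21 pairs within groups and 0.914 over 24 pairs between them. Across H3K27ac peaks it was 0.641 within and 0.683 between. These correlations are descriptions over shared peaks. On the first principal component, which held 42.8% of the H3K4me3 variance, replicates 5 and 6 of aged group 2 lay at 51.9 and 15.8. Its other libraries lay between -43.5 and -15, and those of aged group 1 between -39.3 and -20. For H3K27ac, with 42.4% of the variance, the same 2 replicates lay at 115 and 32.6, the others of aged group 2 between -72.7 and -12.1, and aged group 1 between -71.3 and -3.92. Replicate 5 came from a mouse of 42 weeks and replicate 6 from one of 48 weeks.

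In aged groups 1 and 2 the replicate number is also the first digit of a second code in the library names, whose meaning the labels do not give. Digits 5 and 6 occurred in aged group 2 but not in aged group 1, so within these 2 groups the digit and the group cannot be told apart there. Both digits also occurred in aged group 3, and digit 5 in young. With the digit as a factor over all 27 libraries, 0 peaks of either mark passed in limma. An unadjusted p under 0.05 was found in that fit for 698 H3K4me3 and 1473 H3K27ac peaks. Within digits 1 to 4, 0 peaks of either mark passed in limma, with 1158 H3K4me3 and 2076 H3K27ac peaks at an unadjusted p under 0.05. The differences there were -0.22 for Cir1, -0.20 for Parp6, -0.29 for Nampt, 0.22 for Ggcx, 0.39 for Lrriq1 and 0.54 for Exoc4, close to those over all 10 libraries. These promoters were chosen for a small p over the 10 libraries, and digits 1 to 4 are most of these. The closeness was therefore favoured by the choice and is a description.

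**Figure D3:**
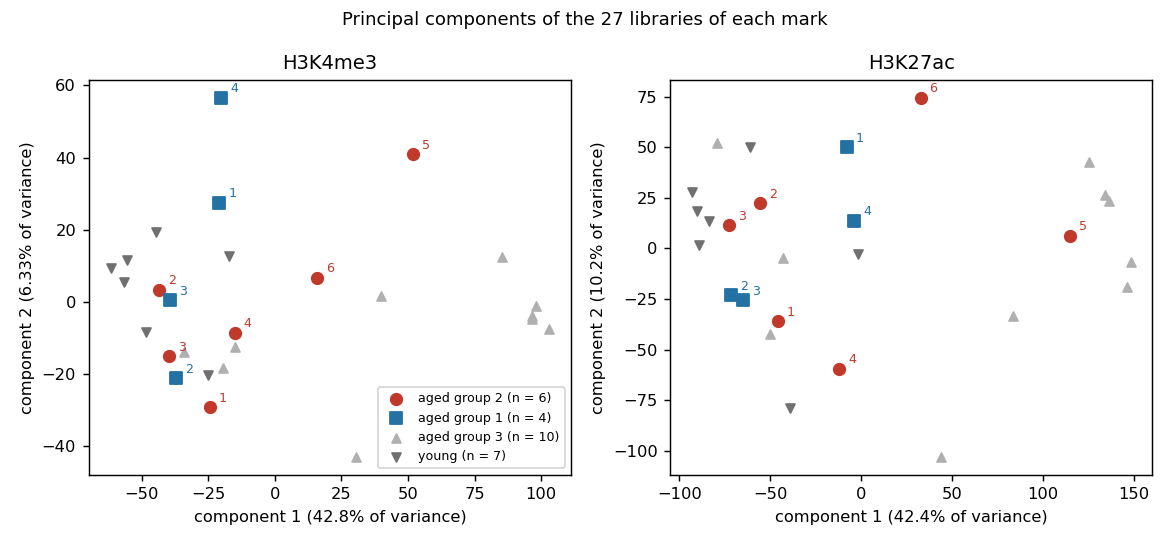
First and second principal components of the 27 libraries of each mark, with aged group 2 as red circles and aged group 1 as blue squares, numbered by replicate, and the other ages in grey. Replicates 5 and 6 of aged group 2 lie to the right of the other libraries of both groups in both marks, and replicate 4 of aged group 1 lies at 56.6 on the second component for H3K4me3.

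Gene lists were described at promoters, 1 peak per gene within 1 kb of the RefSeq start. Of 411 list genes measured for H3K4me3, 0 passed the threshold in limma and 9 had an unadjusted p under 0.05 (2.19%), against 1.71% of all H3K4me3 promoter peaks. Of 356 for H3K27ac, 0 passed and 6 had such a p (1.69%), against 1.99% of all H3K27ac promoter peaks. Over all genes with a promoter peak, 45% of 11718 had a higher H3K4me3 mean in aged group 2, with a median difference of -0.01, and 37.6% of 10714 a higher H3K27ac mean, with a median of -0.05. The scale matters to such small shifts. In values without quantile normalization, the median over all genes moved to 0.18 for H3K4me3 and -0.18 for H3K27ac. There the H3K4me3 medians of stroma (0.02), smooth muscle (0.10), collagens (0.04) and antigen presentation (0.05) turned positive, though still under that of all genes.

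Levels are given for marker genes of the tissue that had the highest means of their lists. Esr1 and Pgr, the oestrogen and progesterone receptors, had mean H3K4me3 of 3.93 and 4.12 log2 RPKM in aged group 2 and 3.88 and 3.95 in aged group 1. Epithelial Cldn3 averaged 3.84 in aged group 2 and 3.59 in aged group 1, and the stromal regulators Nr2f2 and Meis1 averaged 4.39 and 4.39 in aged group 2, against 4.39 and 4.34 in aged group 1. That these markers had signal in both groups was fixed by the choice of the highest means, so it does not test the tissue label. Hoxa10, Hoxa11, Hoxd10, Twist2, Hand2, Tcf21 and Wt1 of the stromal list had no peak of their name within 1 kb of the RefSeq start and did not enter.

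Epithelial markers had higher means in aged group 2 in 17 of 19 genes for H3K4me3 (median difference 0.26) and in 16 of 18 for H3K27ac (0.19). None passed the test. The keratin gene Krt18 had 3.59, 3.88 and 4.04 log2 RPKM of H3K4me3 in aged group 2, as lowest, median and highest, against 3.35, 3.10, 3.73 and 3.60 in aged group 1. The tight junction gene Cldn3 had 3.34, 3.98 and 4.09 in aged group 2, against 3.66, 3.4, 4.00 and 3.29 in aged group 1. Both overlapped between groups, with differences of 0.37 ± 0.17 for Krt18 and 0.26 ± 0.18 for Cldn3. The H3K27ac differences were 0.23 ± 0.17 and 0.25 ± 0.15. Wnt7a, the epithelial Wnt ligand needed for gland formation, was picked after its values were seen and differed by 0.63 ± 0.28 for H3K4me3, with 3.24, 2.98, 2.98, 3.46, 3.88 and 4.09 in aged group 2, against 2.50, 2.81, 3.15 and 2.78 in aged group 1.

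Oestrogen-response genes had higher means in 14 of 16 for H3K4me3 (median 0.17) and 12 of 16 for H3K27ac (0.24), again with 0 past the test. The receptors themselves differed little in the mean, Esr1 by 0.05 ± 0.11 and Pgr by 0.17 ± 0.14 for H3K4me3. In replicates 5 and 6 of aged group 2, Esr1 had 3.75 and 3.85, against 3.70 to 4.16 in its other libraries. Pgr had 4.04 and 4.49 there, against 3.92 to 4.26. The 4 genes that follow were picked after their values were seen, because they split within aged group 2. They do not stand for the whole list. Lactoferrin (Ltf), the classical oestrogen-induced secretion of the mouse uterus, had H3K4me3 of -0.69, -2.28, -0.43, -1.29, 2.79 and 1.35 log2 RPKM in replicates 1 to 6 of aged group 2, against 0.06, -2.76, -1.76 and 0.13 in aged group 1. Lcn2, an iron-binding lipocalin of the same secretion, had -0.34, -1.09, -0.37, -0.84, 3.41 and 3.18 in aged group 2, against 0.54, -0.78, -1.01 and 1.04 in aged group 1. Replicates 5 and 6 were the highest of the 10 at both genes, while the other 4 lay within or near the range of aged group 1.

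The water channel gene Aqp5 had 3.05 and 2.95 log2 RPKM in replicates 5 and 6 of aged group 2, between -0.35 and -0.05 in its other libraries, and 1.92, -1.08, -0.44 and 0.39 in aged group 1. The arginine deiminase gene Padi1 had 3.22 and 3.71 in those 2 replicates, between -0.75 and 0.78 in the others, and 0.69, -0.07, -0.20 and 0.19 in aged group 1. The differences of the group means were 0.99 ± 1.10 for Ltf, 0.71 ± 1.00 for Lcn2, 0.67 ± 0.86 for Aqp5 and 1.18 ± 0.82 for Padi1, so the SE was above the difference at Ltf, Lcn2 and Aqp5 and below it at Padi1. Replicates 5 and 6 were also the highest of the 10 in H3K27ac at all 4 genes. At Lcn2 it was 2.56 and 2.03 in replicates 5 and 6 of aged group 2, between 0.72 and 1.25 in its other libraries, and 1.08, 0.72, 1.16 and 1.6 in aged group 1. The stage of the oestrous cycle is not in the labels, and its part in the result was not tested.

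As a score, the mean over the 16 oestrogen-response genes of H3K4me3 was 2.05, 1.84, 2.09, 2.11, 3.14 and 3.14 log2 RPKM in aged group 2, against 2.26, 1.77, 1.81 and 2.25 in aged group 1. The epithelial score behaved alike, with 2.67, 2.59, 2.81, 2.98, 3.59 and 3.48 in aged group 2, against 2.90, 2.48, 2.82 and 2.68 in aged group 1. For H3K4me3, in both lists, the first 4 replicates of aged group 2 fell within or near the range of aged group 1, and replicates 5 and 6 above it. For H3K27ac the epithelial score spanned 1.45 to 2.18 in aged group 2 and 1.45 to 1.89 in aged group 1. The oestrogen-response score of that mark spanned 0.68 to 1.67 in aged group 2 and 0.62 to 1.14 in aged group 1. The epithelial list median stayed positive when any single library was left out, between 0.17 and 0.32 for H3K4me3 and between 0.10 and 0.31 for H3K27ac. That of the oestrogen response stayed between 0.14 and 0.26, and between 0.05 and 0.26. Without both replicates 5 and 6, within code digits 1 to 4, the epithelial medians were 0.11 for H3K4me3 and 0.10 for H3K27ac, and those of the oestrogen response were 0.05 and -0.06, so the H3K27ac median of the oestrogen response changed sign. Ltf and Lcn2, picked above for their values, stand in both lists, so the lists share genes and both scores include them.

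**Figure D4:**
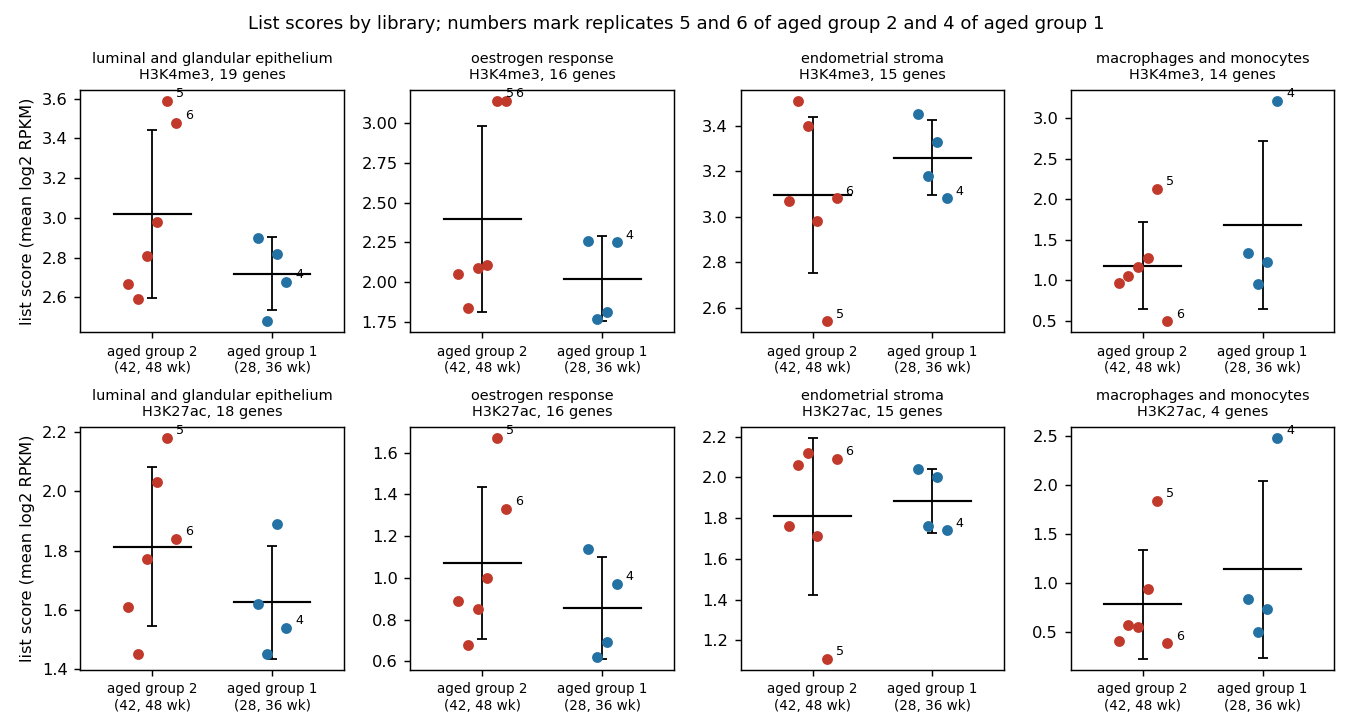
Mean normalized log2 RPKM over the genes of 4 lists in each library, H3K4me3 above and H3K27ac below, with aged group 2 left of aged group 1 and bars for mean ± SD. Replicates 5 and 6 of aged group 2 are the highest in epithelium and oestrogen response for H3K4me3, replicate 5 is the lowest in stroma, and replicate 4 of aged group 1 is the highest in macrophages for both marks.

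Stromal markers had lower H3K4me3 means in aged group 2 in 13 of 15 genes (median -0.17), collagen and matrix genes in 26 of 29 (-0.15) and smooth muscle genes in 13 of 15 (-0.12). The stromal score was 3.07, 3.51, 3.4, 2.98, 2.54 and 3.08 log2 RPKM in aged group 2, against 3.45, 3.18, 3.33 and 3.08 in aged group 1. Replicate 5 of aged group 2 was the lowest of the 10. Without it the H3K4me3 medians came to -0.08 for stroma, -0.02 for collagens and -0.0013 for smooth muscle. For H3K27ac, 23 of 26 collagen and matrix genes were lower (median -0.11, and -0.03 without replicate 5) and 10 of 15 stromal genes (-0.07, and 0.06 without it), while 7 of 11 smooth muscle genes were higher (0.01). Lamc1, a laminin chain of basement membranes, had 3.74, 4.04 and 4.36 of H3K4me3 in aged group 2, as lowest, median and highest, against 4.02, 4.28, 4.10 and 4.00 in aged group 1, a difference of -0.06 ± 0.11. Within code digits 1 to 4 the H3K4me3 medians were -0.04 for stroma, -0.02 for collagens and -0.07 for smooth muscle, against -0.02 for all genes. Cald1, a regulator of smooth muscle contraction, had 3.16, 3.61 and 4.14 in aged group 2, against 3.84, 3.79, 3.74 and 3.70 in aged group 1, a difference of -0.08 ± 0.31.

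The epithelial score minus the stromal score was taken in each library. For H3K4me3 it was -0.40, -0.92, -0.59, -0.01, 1.05 and 0.40 in aged group 2, against -0.55, -0.71, -0.51 and -0.41 in aged group 1. For H3K27ac it was -0.15, -0.61, -0.34, 0.31, 1.07 and -0.26 in aged group 2, against -0.42, -0.31, -0.11 and -0.20 in aged group 1. Aged group 2 spanned a wider range than aged group 1 in both marks and enclosed it. With that score as a covariate, 0 peaks of either mark passed in limma, and 918 H3K4me3 and 2151 H3K27ac peaks had an unadjusted p under 0.05. In that fit the H3K4me3 medians of the collagen and matrix list and of the stromal list changed sign, to 0.06 and 0.05. Other medians that changed sign included those of smooth muscle (0.02) and proliferation (-0.04) for H3K4me3, and of stroma (0.09) for H3K27ac. The stromal genes are part of the score, and the stromal list names collagen genes too. A shift of the stromal and collagen medians was therefore partly built into the fit, and no conclusion is drawn from any of these shifts.

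Macrophage and monocyte markers had lower H3K4me3 means in aged group 2 in 12 of 14 genes measured of 16 listed, with a median difference of -0.59. Cx3cr1 and Cd163 had no promoter peak of their name. The score of the measured genes was 0.97, 1.05, 1.16, 1.27, 2.13 and 0.49 log2 RPKM in aged group 2, against 1.33, 0.95, 1.22 and 3.22 in aged group 1. Replicate 4 of aged group 1 stood above every other library, and the median was -0.03 without it. With shallow peaks filtered out, the median over the list genes left was 0.235. The number of genes left was not counted, and Cd14 alone differed by 0.235 with all peaks kept. That median therefore does not stand for the whole list. For H3K27ac, 4 of 4 measured genes were lower (median -0.43, and 0.09 without that library). Mpeg1, the pore-forming protein of macrophages, had H3K4me3 of 0.60, 1.38 and 3.10 in aged group 2, against 2.27, 1.14, 1.68 and 3.83 in aged group 1, a difference of -0.74 ± 0.42. Cd14, the co-receptor for bacterial lipopolysaccharide, differed by 0.24 ± 0.15, with 3.66, 4.01 and 4.37 in aged group 2, against 3.82, 3.5, 3.83 and 3.85 in aged group 1. Csf1r, Spi1 and Lyz2, chosen after their values were seen, had 3.79, 3.26 and 3.25 in that replicate, and at most 1.51, 0.49 and 1.28 in the other libraries of aged group 1.

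Antigen presentation genes, which macrophages also use, had lower H3K4me3 means in 7 of 7 genes (median -0.15), and the median was -0.03 without replicate 4 of aged group 1. For H3K27ac, 2 of 4 were higher and 2 lower (median -0.01). The part of macrophage content in that result was not tested. HOX genes, which pattern the reproductive tract along its length, had lower H3K4me3 means in 5 of 5 genes measured of 25 listed (median -0.30). That median was -0.13 without replicate 1 of aged group 2 and -0.07 in values without quantile normalization. Hoxd11 had 2.16, 3.12 and 3.46 log2 RPKM in aged group 2, against 3.57, 3.28, 3.44 and 3.10 in aged group 1. The groups overlapped, with a difference of -0.34 ± 0.37. For H3K27ac, 2 of 3 HOX genes were higher.

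Proliferation genes had higher H3K4me3 means in 19 of 24 (median 0.06, 0.00012 without replicate 5 of aged group 2, and -0.07 with the replicate number as a block), and 14 of 24 were lower for H3K27ac. Kif11, a mitotic spindle motor, had 3.90, 4.69 and 5.26 of H3K4me3 in aged group 2, against 4.30, 3.99, 4.67 and 4.61 in aged group 1. Progesterone-response genes had lower H3K4me3 means in 12 of 20 (-0.12, and 0.07 in values without quantile normalization) and lower H3K27ac means in 9 of 15 (-0.01). Gata2, which acts with the progesterone receptor, had 4.24, 4.55 and 4.74 in aged group 2, against 4.38, 4.40, 4.76 and 4.23 in aged group 1. Decidualisation and implantation genes had medians of 0.02 for H3K4me3 and -0.01 for H3K27ac. Neither hormone list thus held a gene past the test.

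Several lists had mostly lower means in H3K27ac, as had all genes with a promoter peak (6682 of 10714). Matrix degradation genes had lower H3K27ac means in 11 of 11 (median -0.14), immediate early genes in 13 of 14 (-0.11), chromatin regulators in 20 of 24 (-0.13), inflammatory secretion in 13 of 15 (-0.17) and ciliated cell genes in 4 of 6 (-0.31). All genes had a median of -0.05 for that mark, and 37.6% of them had higher means. Ciliated cell genes were near that share, with 33.3% higher. So were the stromal (33.3%), progesterone-response (40%) and proliferation genes (41.7%) given above. The immediate early median was -0.05 without replicate 4 of aged group 1, that of matrix degradation -0.09 without replicate 5 of aged group 2, and that of ciliated cells -0.19 without replicate 2 of aged group 2. Their H3K4me3 medians were -0.11, -0.02, -0.03, -0.05 and -0.01, in the same order. Adamts1, a secreted protease of ovulation and remodelling, had H3K27ac of 1.40, 2.04 and 2.21 in aged group 2, against 2.10, 1.72, 2.2 and 1.86 in aged group 1. Tet2, a DNA demethylase, had 2.49, 2.71 and 2.87 in aged group 2, against 2.74, 2.89, 2.67 and 3.11 in aged group 1. Klf6, an early-response factor, had 2.93, 3.10 and 3.27 in aged group 2, against 3.13, 3.04, 3.20 and 3.41 in aged group 1. Each overlapped between groups.

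Single genes of the lists with an unadjusted limma p under 0.05 were chosen by their values and are given as such. The clock repressor gene Per2 had H3K4me3 of 3.18, 3.19, 3.15, 3.28, 3.24 and 3.44 log2 RPKM in aged group 2, against 2.81, 3.04, 3.01 and 3.02 in aged group 1, with no overlap and a difference of 0.28 ± 0.11. Its H3K27ac differed by 0.16 ± 0.14, with groups that overlapped. Sox17, a factor of endothelium and uterine epithelium, had H3K27ac of 2.60, 2.61, 2.80, 3.03, 3.19 and 3.04 in aged group 2, against 2.76, 2.16, 2.56 and 2.15 in aged group 1, a difference of 0.47 ± 0.17. The guanylate-binding protein gene Gbp3 had H3K27ac of 2.32, 2.25, 2.29, 2.24, 2.06 and 2.36 in aged group 2, against 2.76, 2.46, 2.52 and 2.53 in aged group 1, with every library of aged group 2 lower and a difference of -0.32 ± 0.15. The T and NK cell gene Cd2 differed in H3K4me3 by -1.59 ± 0.60, with -0.45, -0.18, 0.02, -0.15, -2.80 and 1.44 in aged group 2, against 1.37, 0.66, 1.47 and 1.48 in aged group 1.

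**Figure D5:**
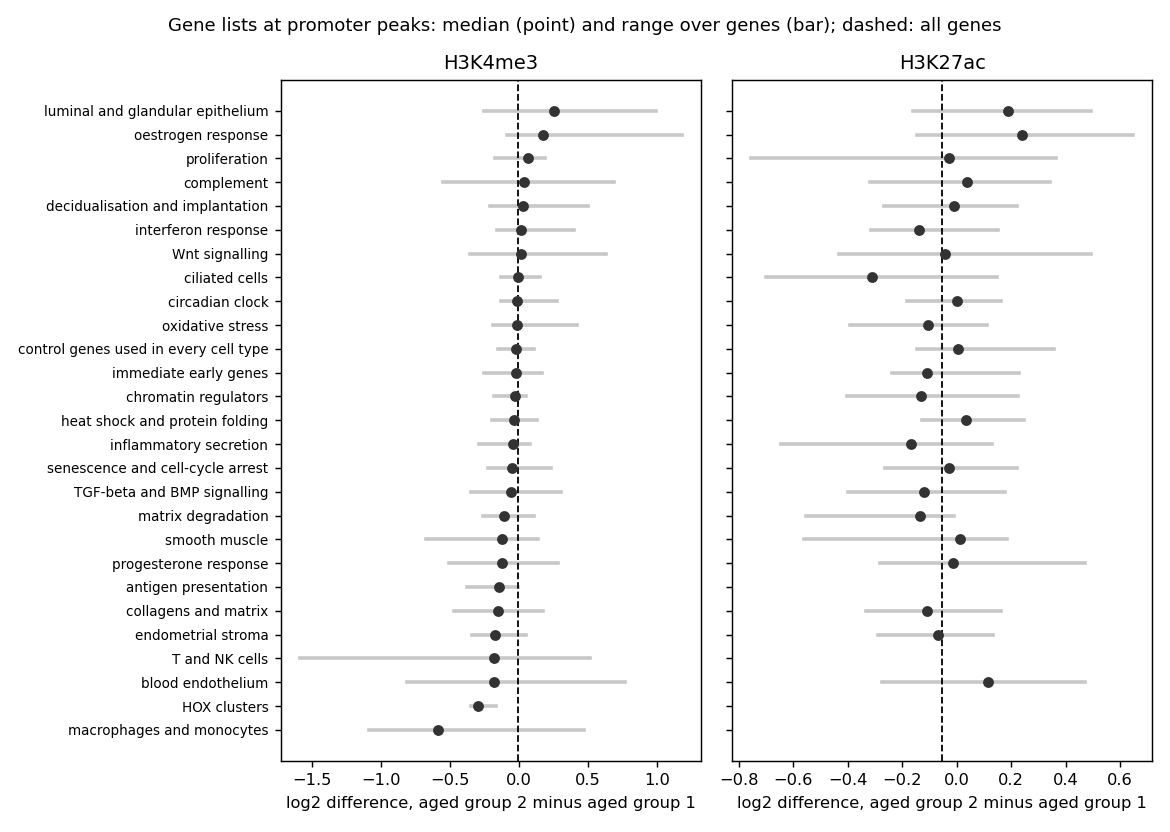
Median (point) and range over genes (bar) of the log2 difference, aged group 2 minus aged group 1, for each gene list with at least 5 genes measured at promoters, with a dashed line at the median of all genes (-0.01 for H3K4me3, -0.05 for H3K27ac). Macrophages (-0.59) and HOX genes (-0.30) lie lowest for H3K4me3, and epithelium (0.26) and oestrogen response (0.17) highest.

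The libraries themselves differed in depth and enrichment. Total reads, in M (mega) reads, were 6.8351 to 12.168 per H3K4me3 library of aged group 2, against 7.2319 to 48.29 in aged group 1, where replicate 3 was the deepest. For H3K27ac they were 8.0988 to 16.945 M in aged group 2 and 10.431 to 13.361 M in aged group 1. The share of reads in peaks was 39.68% to 68.43% in aged group 2 and 46.65% to 59.87% in aged group 1 for H3K4me3, and 35.43% to 43.71% and 39.77% to 47.7% for H3K27ac. No pair of libraries of a group agreed within counting error, with a chi-square per degree of freedom of at least 2.96 for H3K4me3 and 2.08 for H3K27ac. If the codes in the library names are animals, p-values measure the spread between animals together with that of library preparation, and otherwise only the spread between these libraries.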

How the data were processed

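H3K4me3 and H3K27ac were profiled by native chromatin immunoprecipitation from few nuclei, 27 libraries per mark. Per the labels' protocols, aliquots of 20000 nuclei were cut by micrococcal nuclease (7.5 minutes), incubated with 250 ng of antibody and read as pairs of 75 bases. The authors deposited for each mark a table of log2 RPKM of every peak in every library. The submitters' processing notes name, with no order or role, the build GRCm38 and the tools deepTools 3.5.1, ChIPseeker 1.34.1, DiffBind 3.8.0, MACS2 2.2.9.1, Bowtie2 and DESeq2. The values stood for whole reads, within 0.05, in 100% of cases, with empty peaks set to 0.9 reads. A count test was not used, because the deposited unit is a log2 value.

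Peaks on chromosomes 1 to 19 and X were quantile normalized over the 27 libraries and fitted with limma 3.58.1 (R 4.3.3, mean-variance trend) as 4 group means, two-sided, Benjamini-Hochberg adjusted over all peaks at 0.05. The ages within groups were compared in a model of 6 means. A further 8 peaks per table on chromosome Y were left out. Starts came from RefSeq for 16718 of 18815 gene symbols, matched by symbol, and a promoter peak lay within 1 kb. Peaks were named by smallest p, 10 per direction and mark, leaving out predicted genes and peaks whose higher group mean was under the lower quartile, and list genes by the 2 highest means per list unless said otherwise. Of the genes these rules name, 2 are not reported here. The members and the 32 lists were chosen with earlier results of these data known. Sequences were read with Python 3.11.15 and figures drawn with matplotlib 3.10.9 and numpy 2.4.6. Alternatives were other scalings, a pseudocount of 0.5 RPKM, a filter on low peaks, array weights, the library code digit, the replicate block and leaving out each library.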

Additional observations from a re-analysis of the deposited data

Results flagged for a closer look

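Of 192 groups examined for a library far from the rest, 13 were marked (6.77%), and chance alone marks about 1 in 20. At the named H3K4me3 peaks, replicate 4 of aged group 2 had 0.81 log2 RPKM at Snorc, with the others between 1.82 and 2.27. Replicate 4 of aged group 1 had 3.66 at Lrriq1 (others 4.09 to 4.15). At Chic2, replicate 5 of aged group 2 had 4.14 (others 3.79 to 3.90) and replicate 3 of aged group 1 had 4.03 (others 4.17 to 4.19). At the named H3K27ac peaks, replicate 3 of aged group 2 had -1.23 at Abtb2 (others 0.26 to 1.08), replicate 5 of aged group 2 had 1.64 at Fdps (others -0.60 to 0.23) and replicate 4 of aged group 1 had 1.83 at Dpp8 (others 0.60 to 0.78).

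Among the H3K4me3 list scores, replicate 6 of aged group 2 had 2.14 for antigen presentation (others 2.45 to 2.56) and replicate 2 of aged group 2 had 3.4 for oxidative stress (others 3.51 to 3.57). Replicate 4 of aged group 1 had 3.22 for macrophages and monocytes (others 0.95 to 1.33), and replicate 2 of aged group 1 had 2.11 for HOX clusters (others 2.68 to 2.79). Of the H3K4me3 libraries, replicate 1 of aged group 2 had 39.68% of reads in peaks (others 58.55% to 68.43%), and replicate 3 of aged group 1 held 48.29 M (mega) reads (others 7.232 to 11.449 M).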

How the results depend on the processing

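Of 102 counts of called peaks recomputed under alternatives, 95 stayed at 0. Aged group 2 against aged group 1 gave 0 to 1 H3K4me3 peaks when each library was left out in turn. The call without replicate 1 of aged group 2 was a peak with no gene within 5 kb (2.52 ± 0.41, limma adjusted p 0.032), and that without replicate 1 of aged group 1 a peak in the Fhit body (-1.31 ± 0.22, adjusted p 0.0408), both at near-empty levels. For H3K27ac the range was 0 to 0. Between 36 and 28 weeks, leaving out a library gave 0 to 2 H3K4me3 peaks, with a lone library on 1 side assumed to vary like the others. For H3K27ac, 1 peak was called there with the 10 libraries alone and 1 with the code digit as a factor. Without both replicate 5 of aged group 2 and replicate 4 of aged group 1, an alternative chosen after seeing the data, 0 peaks of either mark were called, and list medians were 0.12 and 0.11 for epithelium, 0.18 and 0.09 for oestrogen response, and -0.16 and -0.14 for macrophages (H3K4me3, then H3K27ac). Of 867 recomputed differences of named peaks, 866 kept their direction and side of the threshold, and Ambra1 reversed to 0.0112 in values as deposited. These peaks were chosen for a small p in the same libraries, so a kept direction was largely fixed by that choice. None had passed the threshold, so keeping its side means only that none was called. List genes past the threshold stayed at 0 in all 46 recomputed counts. With the replicate number as a block, 0 peaks of either mark were called, with 1229 H3K4me3 and 2069 H3K27ac peaks at an unadjusted p under 0.05 in limma. The numbers gave no sign of pairing, since deviations of libraries with the same number correlated at -0.0784 to 0.0783 for H3K4me3 and -0.313 to 0.281 for H3K27ac. The 5 input libraries were not used here.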
